A study of Mus musculus with 2 samples.

Results

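The genes described here are 49 listed genes of microglia, brain macrophages and the complement system, with the signals by which neurons address those cells. Membership was set by gene symbol, and the list was chosen with earlier results of these data known. All 49 were matched among 55536 annotated genes, of which 22015 are nuclear protein-coding genes. They fall into 5 groups: 22 homeostatic genes, 13 activation genes, 4 border macrophage genes, 5 complement genes and 5 genes of neuron-derived ligands. Total RNA came from the cerebral cortex of the left side. The donors were 2 females of the hybrid strain B6CASTF1/J (offspring of C57BL/6J crossed with CAST/EiJ), both 36 days old. Each mouse gave 1 library, made from 300 ng of RNA with synthetic spike-in RNAs added. The mice received no treatment that the labels name, and both form 1 group, so the only contrast is between 2 animals of the same kind. Replicate 1 and replicate 2 below are these 2 mice.

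Microglia are the resident macrophages of the brain. They depend on signalling through the receptor CSF1R, whose ligands are interleukin-34 and CSF1, and in the healthy brain they carry a set of surface receptors by which they sense nucleotides, the chemokine fractalkine and neuronal "do not eat" signals. After injury or near amyloid they lower part of that set and raise an activation programme around the receptor TREM2 and its adaptor TYROBP. They are also the main makers of C1q, the protein that starts the classical complement cascade and that tags synapses for removal during development. A separate population of macrophages lives at the borders of the brain, in the meninges and around vessels, and carries the mannose receptor MRC1, CD163 and LYVE1.

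Replicate 1 held 29417200 and replicate 2 held 35188800 expected counts (estimated reads per gene). Levels are given as TPM, a gene's share of all transcripts after correction for length, as mean ± SD of the 2 mice, so that genes can be set side by side. Ratios between the mice are log2 ratios of replicate 2 over replicate 1 from scaled counts, with 95% intervals that cover counting error only. No p-value can be had from 1 library per mouse, and the spread between the 2 mice may be technical as well as biological. Nuclear protein-coding genes took 46.9% of TPM in replicate 1 and 41.9% in replicate 2, which lowers the TPM of most genes in replicate 2, and 36 of 49 members had a lower TPM there. In bulk tissue, fewer cells of a type and less RNA per cell cannot be told apart.

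Most of these genes were present at low to moderate levels in this tissue. Of the 49 members, 42 (85.7%) had at least 1 TPM in both mice, against 57.9% of nuclear protein-coding genes. The median member stood at 5.29 ± 0.375 TPM (SD, n = 2), and 33 of 49 lay above the median of nuclear protein-coding genes, 3.46 TPM. Among protein-coding genes with at least 1 TPM in both mice the median was 15.3 TPM, so most members were low-abundance transcripts of this tissue. The groups differed widely in level: the median was 109 ± 13.4 TPM for the neuron-derived ligands, 18.4 ± 1.09 TPM for complement, 5.62 ± 0.460 TPM for activation, 5.02 ± 0.184 TPM for the homeostatic genes and 1.10 ± 0.407 TPM for the border macrophage genes. Only 3 members exceeded 100 TPM, all of them ligands or their partner (Cx3cl1, Sirpa and Cd47), and 6 had a mean under 1 TPM (Ptprc, Cd163, Lyve1, Runx1, C3 and Itgax).

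**Figure D1:**
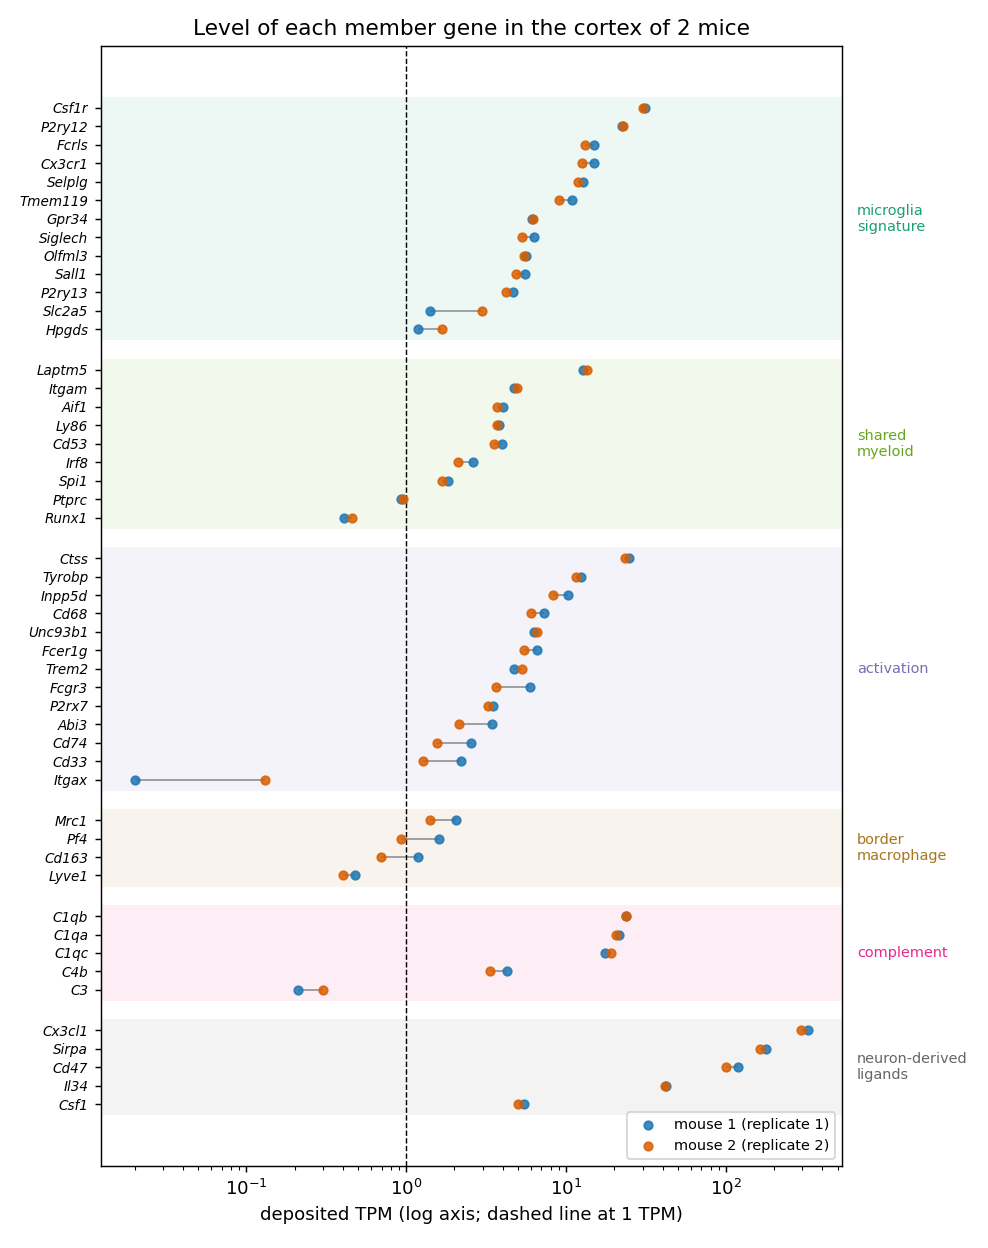
Deposited TPM of each of the 49 members (log axis) in replicate 1 (blue) and replicate 2 (orange), grouped by role, with a line joining the 2 mice and a dashed line at 1 TPM. The points of the 2 mice lie close together for most genes; the widest gaps are at low values, such as Itgax at 0.02 and 0.13 TPM.

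The stretches just before the transcription start are shown for 6 members, because the myeloid factor PU.1, encoded by the member Spi1, binds purine-rich sites near the starts of many macrophage genes. Windows of 300 bases, from 250 before to 50 after a gene's start, came from RefSeq on build GRCm38.p6 and were found for 35 of the 49 members. The stretches below end before the first annotated transcript start and run 5′ to 3′ on the gene's strand. C1qb, C1qc, Fcer1g, P2ry12 and P2ry13 were listed for display as members of pairs, and Inpp5d was added after its match had been seen. C1qa and Tyrobp were listed for display as well but are not shown. Capitals mark GAGGAAGT or its reverse complement where present, and otherwise the shorter GAGGAA. They lie at chr4:136893066-136893164 (C1qc, minus strand), chr4:136886201-136886320 (C1qb, minus), chr1:171234366-171234485 (Fcer1g, minus), chr1:87620192-87620311 (Inpp5d, plus), chr3:59210883-59211002 (P2ry13, minus) and chr3:59262986-59263105 (P2ry12, minus).
C1qc: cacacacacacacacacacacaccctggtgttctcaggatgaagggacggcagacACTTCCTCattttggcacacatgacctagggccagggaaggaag
C1qb: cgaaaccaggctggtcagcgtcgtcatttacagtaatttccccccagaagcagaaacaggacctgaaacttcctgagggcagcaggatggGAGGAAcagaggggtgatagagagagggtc
Fcer1g: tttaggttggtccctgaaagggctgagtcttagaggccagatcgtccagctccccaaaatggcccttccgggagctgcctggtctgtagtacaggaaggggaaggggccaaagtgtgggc
Inpp5d: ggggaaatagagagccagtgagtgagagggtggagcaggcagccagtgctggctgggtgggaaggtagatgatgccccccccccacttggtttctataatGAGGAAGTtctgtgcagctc
P2ry13: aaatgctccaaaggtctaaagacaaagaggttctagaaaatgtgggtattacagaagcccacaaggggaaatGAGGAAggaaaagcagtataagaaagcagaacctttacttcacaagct
P2ry12: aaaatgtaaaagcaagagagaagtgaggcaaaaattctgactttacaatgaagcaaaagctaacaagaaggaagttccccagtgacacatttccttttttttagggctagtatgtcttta
GAGGAAGT, searched on both strands, was in the windows of 7 of 35 members (20%) and of 3.69% of 27025 genes with a window. The members were C1qc, Cd53, Ctss, Hpgds, Inpp5d, P2rx7 and Pf4. The shorter core GAGGAA, which lies inside the longer one, was in 22 of 35 members (62.9%) and in 31.3% of all genes. The composite of GGAA, 2 bases of any kind and GAAA was in 1 of 35 members (2.86%, Cd68) and 3.16% of all genes, and CACGTG in 3 of 35 (8.57%: P2ry12, Runx1 and Siglech) and 8.09% of all genes. The match in Inpp5d begins 20 bases before the start and that in P2ry13 begins 48 bases before it, while the windows of P2ry12 and Fcer1g hold neither core. A match is a run of letters, not a measured binding site, and the 4 motifs were chosen with the members known.

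The homeostatic genes include 13 signature genes that mark microglia among brain cells, and all 13 passed 1 TPM in both mice. Csf1r, which encodes the receptor for interleukin-34 and CSF1, was the highest at 31.3 TPM in replicate 1 and 30.2 TPM in replicate 2. P2ry12, which encodes the purine receptor that guides microglial processes to ATP and ADP, followed at 22.2 and 22.8 TPM (ENSMUSG00000036353.13, chromosome 3, 59216272 to 59262871). Fcrls, an Fc receptor-like gene that in mice sets microglia apart from other macrophages, stood at 14.8 and 13.1 TPM. Cx3cr1, the fractalkine receptor gene, stood at 14.8 and 12.5 TPM (ENSMUSG00000052336.7, chromosome 9, 119901616 to 120069879). In the gene table Csf1r lay above P2ry12 in both mice, and both lay above Fcrls and Cx3cr1, whose order was not resolved.

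Below them in the gene table lay the adhesion ligand gene Selplg at 12.3 ± 0.587 TPM, which in the second transcript table lay above Fcrls and Cx3cr1 in both mice, and Tmem119, a surface marker of microglia, at 9.90 ± 1.32 TPM. The lysophospholipid receptor gene Gpr34 stood at 6.15 and 6.16 TPM, and the lectin gene Siglech at 5.80 ± 0.700 TPM. The secreted factor gene Olfml3 and Sall1, whose transcription factor maintains microglial identity, stood at 5.51 ± 0.148 and 5.21 ± 0.488 TPM. P2ry13, a second ADP receptor gene beside P2ry12 on chromosome 3, stood at 4.65 and 4.18 TPM, so P2ry12 exceeded it 5.12 ± 0.470-fold. Both of these genes lie inside Med12l, which runs on the opposite strand at 20.1 and 17.0 TPM. Genes on the opposite strand also overlap Gpr34 (Cask, at 60.7 and 54.8 TPM), Cx3cr1 (Wdr48, at 34.0 and 28.4 TPM) and Csf1r (Hmgxb3, at 20.1 and 16.5 TPM). Cx3cr1 is also overlapped on its own strand, where strand does not tell genes apart, with Gorasp1 the highest at 16.97 and 16.45 TPM. The sources used here do not give whether the counting used strand. The lowest signature genes were the fructose transporter gene Slc2a5, at 1.40 and 2.96 TPM, and the prostaglandin D synthase gene Hpgds, at 1.18 and 1.68 TPM.

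The other 9 homeostatic genes are shared by microglia and other white blood cells, and their median was 3.65 ± 0.205 TPM against 6.22 ± 0.0919 TPM for the signature. This split was made by list, and whether other white blood cells also carry signature genes was not tested. Laptm5, which encodes a lysosomal membrane protein of haematopoietic cells, was the highest at 12.7 and 13.5 TPM. Itgam, the gene of the CD11b integrin chain, followed at 4.74 and 4.91 TPM, and Aif1, which encodes the microglial stain IBA1, at 4.02 and 3.70 TPM. Ly86 and the tetraspanin gene Cd53 stood at 3.74 ± 0.0849 and 3.73 ± 0.304 TPM. Aif1, a common microglial stain at the protein level, was thus below Csf1r, P2ry12 and Cx3cr1 in both mice as RNA.

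The transcription factor genes of the myeloid lineage were among the low members. Irf8, which directs macrophage development, stood at 2.37 ± 0.361 TPM, Spi1, the gene of PU.1, at 1.75 ± 0.0990 TPM, and Runx1, a regulator of blood cell formation, at 0.41 and 0.46 TPM. Ptprc, the gene of the pan-leukocyte phosphatase CD45, stood at 0.93 and 0.95 TPM, just under the 1 TPM threshold. In the second transcript table it stood above that threshold, at 2.14 and 1.48 TPM. Irf8 shares its strand with the gene model Gm20388, which overlaps it and held 19.2 expected counts in replicate 1 and 419 in replicate 2, while Irf8 itself held 111 and 130.

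The median of the activation group lay near that of the homeostatic group, and 12 of its 13 genes passed 1 TPM in both mice. Ctss, which encodes the lysosomal protease cathepsin S, was the highest at 24.61 and 23.45 TPM (ENSMUSG00000038642.10, chromosome 3, 95526786 to 95556403). Tyrobp, the adaptor that passes on signals of TREM2, followed at 12.3 and 11.5 TPM, and Inpp5d, which encodes the phosphatase SHIP1 that counters such signals, at 10.3 and 8.32 TPM. Trem2, the lipid-sensing receptor gene, stood at 4.70 and 5.29 TPM. Fcer1g, a second adaptor gene, which serves Fc receptors, stood at 6.6 and 5.46 TPM. Tyrobp thus exceeded Trem2 2.40 ± 0.315-fold and Fcer1g 1.99 ± 0.170-fold, with Tyrobp the higher of each pair in both mice.

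The lysosomal glycoprotein gene Cd68, a common stain for phagocytic activity, stood at 6.63 ± 0.827 TPM. Unc93b1, which carries nucleic acid-sensing Toll-like receptors to endosomes, stood at 6.42 ± 0.240 TPM, and Fcgr3, a low-affinity IgG receptor gene, at 5.94 and 3.64 TPM. The ATP-gated channel gene P2rx7 stood at 3.35 ± 0.177 TPM and Abi3, an actin regulator gene, at 2.79 ± 0.912 TPM. On the opposite strand Abi3 is overlapped by Phospho1, at 41.9 and 34.3 TPM, and Zfp652, at 18.8 and 14.8 TPM. Cd74, the invariant chain of MHC class II, stood at 2.05 ± 0.707 TPM and the sialic acid receptor gene Cd33 at 1.74 ± 0.665 TPM. Itgax, the gene of CD11c and a mark of microglia around plaques, was the lowest of all 49, at 0.02 and 0.13 TPM, from 1.33 and 11.7 expected counts. Reads of Itgax, Fcgr3, P2rx7 and C4b were partly divided with other genes, which makes their values less certain.

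Complement split into 3 abundant C1q chains and 2 downstream genes at lower levels. C1qa, C1qb and C1qc, the genes of the A, B and C chains that assemble in equal numbers, lie side by side within 18675 bases of chromosome 4 (136880129 to 136898803, all on the minus strand). C1qb was the highest of the 5 at 23.79 and 23.55 TPM, C1qa stood at 21.37 and 20.55 TPM, and C1qc at 17.6 and 19.1 TPM. C1qa was 0.885 ± 0.0181 of C1qb and 1.14 ± 0.0994 of C1qc, so the chains differed little in level. In the authors' second transcript table, summed per gene, C1qa was 1.04 of C1qc in replicate 1 and 0.872 in replicate 2, so their order turned around in 1 mouse, while C1qb stayed the highest. The C1qc and C1qb stretches printed above both hold a GAGGAA core, in C1qc as part of the longer GAGGAAGT. No stretch is printed for C1qa, which was not among the 22 members with a GAGGAA match.

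C4b, whose product is cleaved by the C1 protease complex in the next step, stood at 4.24 and 3.35 TPM. Its near-identical neighbour C4a, named here after its values were seen, stood at 3.64 and 1.5 TPM, and reads can be divided between the copies. C3, the central component where all complement pathways meet, stood at 0.21 and 0.30 TPM from 11 and 22 expected counts. C3 was 0.0695 ± 0.0283 of C4b in the gene table and 0.252 ± 0.315 of it in the second transcript table, so only its place below C4b held in both. The C1q chains thus stood from 17.6 to 23.8 TPM in either mouse and C3 at no more than 0.30 TPM.

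Beyond the members, 28 further complement genes had a median of 2.29 ± 0.647 TPM, and 16 of them reached 1 TPM in both mice. The highest were Sez6l2 at 180 ± 17.0 TPM and Sez6l at 71.1 ± 7.09 TPM, neuronal membrane proteins with complement-like domains. Cfi, Cfd and C6 had 0 counts in both mice, which allows up to 3 counts in each library, or 0.102 and 0.0853 CPM (counts scaled to library size). Cfp, which encodes properdin, the stabiliser of the alternative pathway, was the only one of these past the 1.5-fold rule given below, at 5.39 and 2.42 TPM with a log2 ratio of -0.90 (95% counting interval -1.34 to -0.51).

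The border macrophage genes were the lowest group, and in the gene table only Mrc1 reached 1 TPM in both mice. In the second transcript table Cd163 (1.63 and 1.07 TPM) and Pf4 (1.79 and 1.46 TPM) did so as well. Mrc1, the mannose receptor gene, stood at 2.06 and 1.40 TPM (ENSMUSG00000026712.3, chromosome 2, 14229392 to 14332057). Pf4, a chemokine gene used as a border macrophage mark, stood at 1.59 and 0.93 TPM but rested on 8 expected counts in each mouse. Cd163, the haemoglobin scavenger receptor gene, stood at 1.18 and 0.69 TPM, and Lyve1, a hyaluronan receptor gene, at 0.48 and 0.40 TPM. P2ry12 exceeded Mrc1 13.5 ± 3.87-fold, 10.8-fold in replicate 1 and 16.3-fold in replicate 2.

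All 4 border macrophage genes were lower in replicate 2, with log2 ratios of -0.33 for Mrc1 (95% counting interval -0.62 to -0.037), -0.59 for Cd163 (-1.08 to -0.13), -0.17 for Pf4 (-1.82 to 1.40) and -0.045 for Lyve1 (-0.88 to 0.79). The first 2 intervals lie below 0 and the other 2 span it widely. Of 12 further border macrophage genes, 11 were also lower in replicate 2, with a median log2 ratio of -0.47, and they summed to 17.4 and 12.6 TPM. Apart from Stab1, Tgfbi and F13a1, the last named after its values were seen, they held at most 22 counts in either mouse. Among all 12613 genes at a mean count of 100 or more, 44.9% were lower in replicate 2. Of the 4 members only Mrc1 reached that count, so this share is not from genes of like counts. None of the 12 further border macrophage genes was listed at 0 in both mice, but the lowest, Clec12a and Lilra5, averaged 0.01 TPM. Only Stab1, the highest of the 12 at 9.59 and 9.13 TPM, had a mean count of at least 100. The same direction was seen in 5 of 5 red blood cell genes, which summed to 866 and 457 TPM (median log2 ratio -0.68), and in 7 of 8 oligodendrocyte markers (median -0.12). Markers of meningeal fibroblasts went the other way, with 5 of 6 higher in replicate 2 and a median of 0.18. The part of these cells in the border macrophage result was not tested.

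The ligand group held the 4 highest members, and Csf1 as a low one. Cx3cl1, which encodes the neuronal chemokine fractalkine, stood at 326 and 293 TPM (ENSMUSG00000031778.13, chromosome 8, 94772009 to 94782427), above 99.4% of nuclear protein-coding genes. Its receptor gene Cx3cr1 stood at 14.8 and 12.5 TPM, so the ligand exceeded the receptor 22.01-fold in replicate 1 and 23.40-fold in replicate 2. Sirpa, the gene of the receptor that reads the "do not eat" signal, stood at 177 and 162 TPM, and Cd47, the gene of that signal, at 118 and 99.6 TPM. Cd47 was 0.642 ± 0.0411 of Sirpa, which in the cortex is made by neurons as well as by microglia, so the ratio is one of whole tissue. Il34 stood at 41.9 and 41.6 TPM and Csf1, the lowest of the group, at 5.44 and 5.02 TPM. Csf1 was thus 0.125 ± 0.00661 of Il34, the other ligand of CSF1R, with the same order in both mice.

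Of 13 further ligands and receptors between glia and neurons, 10 reached 1 TPM in both mice, with a median of 3.66 ± 0.396 TPM. Thy1 was the highest at 391 ± 4.81 TPM, followed by the growth factor gene Ptn at 171 ± 9.03 TPM, and Cd22 was the lowest with 0 and 2 counts. Mdk, which encodes the growth factor midkine, stood at 6.20 and 9.54 TPM, a log2 ratio of 0.84 (95% counting interval 0.46 to 1.26), and was the only one of these past the 1.5-fold rule.

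The 2 mice differed little in these genes, about as little as in annotated genes in general. Among the 36 members with a mean count of at least 100, 0 were at least 1.5-fold apart, against 3.12% of 12613 annotated genes under the same rule. At 2-fold the count was again 0, against 0.745% of all genes. At such small shares few or no genes of 36 would pass either rule, so these counts do not set the members apart. Within 1.2-fold of each other were 31 of the 36 (86.1%), against 81.1% of all genes. The common coefficient of variation between the mice was 12.2% over 18180 genes.

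The median log2 ratio was 0.072 over all 49 members. At a mean count of at least 100 it was 0.093 over 36 members and 0.023 over the 12613 genes. Of those 36 members, 27 (75%) were higher in replicate 2, against 55.1% of the 12613 genes. By group the median was 0.12 for the microglia signature, 0.074 for the shared myeloid genes, 0.010 for activation, 0.21 for complement, 0.14 for the ligands and -0.25 for the border macrophage genes. Scaling by the spike-ins moved the median of all 12613 genes from 0.023 to -0.42, and deposited TPM moved it to -0.20, so a sign near 0 depends on the scaling. All 9 shared myeloid genes and all 5 complement genes were higher in replicate 2 after scaling by all genes, as were 55.1% of the 12613 genes. Only 4 of those 9 and 4 of those 5 had a mean count of at least 100, as the 12613 genes do. With spike-in scaling the shared myeloid and complement medians were -0.36 and -0.24. The border macrophage median, already below 0, was -0.65 with spike-in scaling. Because that scaling lowered the median of all genes as well, the kept sign is no test of this group.

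Single members with mean counts of at least 100 ranged from -0.48 for Fcgr3 to 0.41 for Slc2a5. Fcgr3 held 133 and 110 expected counts, with a 95% counting interval of -0.86 to -0.11. Its deposited TPM intervals did not overlap, but they come from the same reads and add no support. The TPM intervals of Cx3cr1 (log2 ratio -0.021) and Sirpa (0.14) did not overlap either. C1qc held 363 and 532, a log2 ratio of 0.34 (0.14 to 0.54), and C1qb 440 and 589, a ratio of 0.21 (0.028 to 0.39). Laptm5 held 444 and 632, a ratio of 0.30 (0.12 to 0.48). Csf1r, the signature gene with the most reads, held 2155 and 2708, a ratio of 0.12 (0.035 to 0.20), and Cx3cr1 held 1015 and 1159, a ratio of -0.021 (-0.14 to 0.10). With spike-in scaling the ratios of C1qc, C1qb, Laptm5 and Csf1r turned negative, at -0.11, -0.24, -0.15 and -0.33. Below a mean count of 100 the intervals were wide, as for C3, at 0.70 (-0.32 to 1.98), and Itgax, at 2.10 (0.62 to 8.79), whose fitted ratio depends on the prior count. At a mean count of at least 10, 2 of 47 members (C3 and Cd163) were at least 1.5-fold apart, against 12.3% of 18180 genes.

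**Figure D2:**
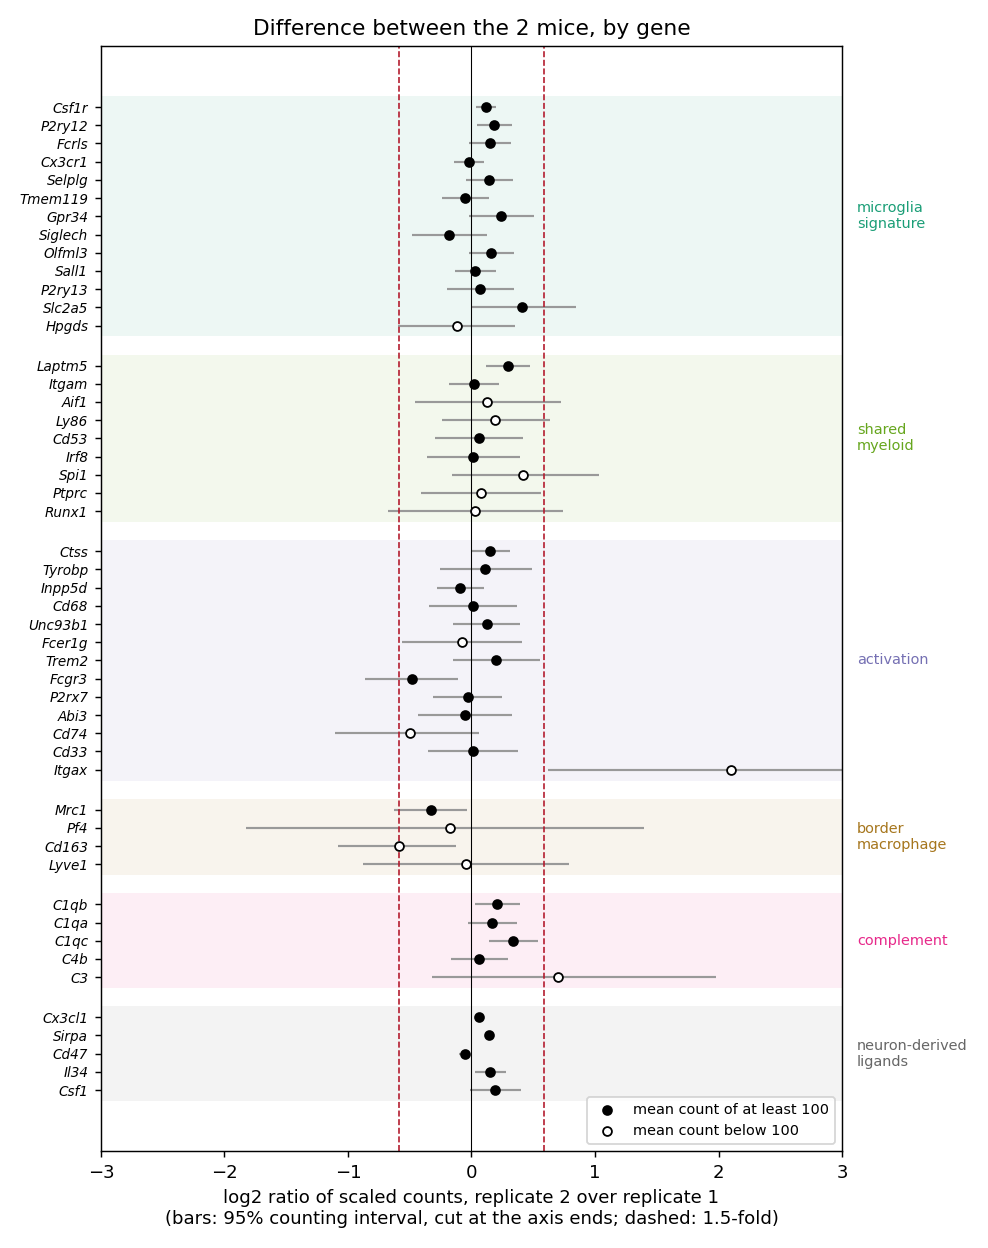
Log2 ratio of scaled counts, replicate 2 over replicate 1, for each of the 49 members, with 95% counting intervals as bars (cut at the axis ends) and dashed lines at 1.5-fold. Filled points have a mean count of at least 100 and all lie between the dashed lines; Itgax, C3 and Cd163, which are open points, reach or pass them.

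For some members TPM and scaled counts gave different pictures. TPM ratios were lower for genes in general, with a median of -0.20 against 0.023 by scaled counts over the 12613 genes. Further gaps lay where the effective length assigned to the gene, by which TPM divides its counts, differed between the mice. The length was over 1.2-fold apart in 7 of the 49 members (Slc2a5, Hpgds, Runx1, Spi1, Cd33, Abi3 and Pf4), and these genes were picked out after their values were seen. Slc2a5 had 80 and 124 expected counts, a log2 ratio of 0.41, but effective lengths of 3059 and 1659 bases, and its TPM log2 ratio was 1.08. Cd33 had a count ratio of 0.010 from 120 and 140 counts and a TPM ratio of -0.80, with lengths of 2904 and 4369 bases. Abi3 likewise had a count ratio of -0.051 and a TPM ratio of -0.68. Among the 36 members with a mean count of at least 100, Slc2a5, Cd33, Abi3 and Fcgr3 would be past 1.5-fold by TPM, while by scaled counts none was. Fcgr3 came nearest, at -0.48 beside a TPM ratio of -0.71, with an effective length of 1196 bases in both mice.

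**Figure D3:**
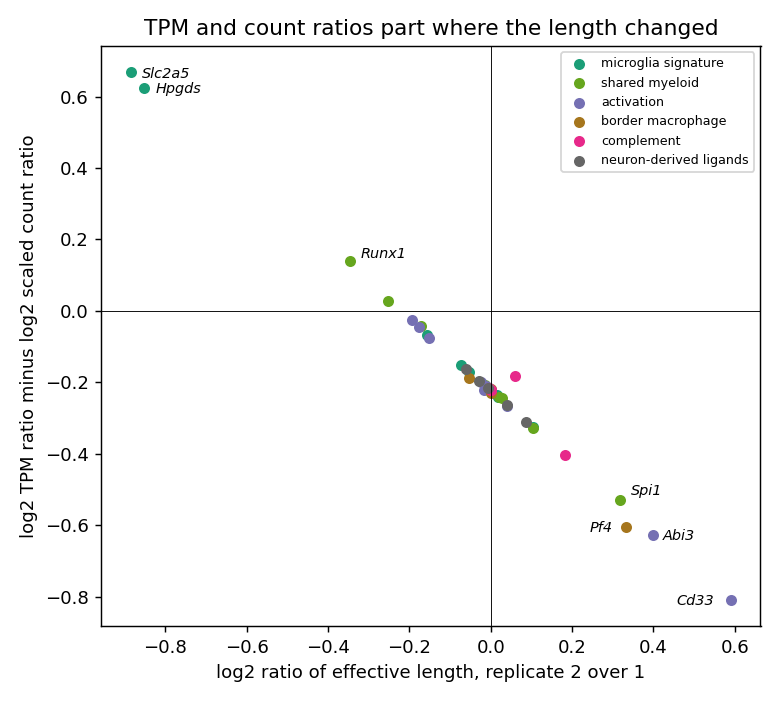
Log2 TPM ratio minus log2 scaled count ratio of each member, against the log2 ratio of its effective length (both replicate 2 over replicate 1); Itgax is not drawn. Slc2a5 and Hpgds lie at the upper left and Cd33, Abi3, Pf4 and Spi1 at the lower right, while genes whose length did not change lie together on the vertical line at 0.

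The transcripts behind these lengths were estimated unevenly. Of the 36 members with a mean count of at least 100, 31 have more than 1 annotated transcript, and in 27 of these the same transcript led in both mice. In 22 of the 31 the leading transcript held at least 50% of the gene's TPM in both mice. In 26 the second transcript table named the same leader by its mean over both mice. That mean can hide a change between the mice: in the second table Ctss-202 held 95.7% of Ctss in replicate 1 and 8.47% in replicate 2. Csf1r-201 held 87.0% and 86.1% of Csf1r and was named in both tables, and C1qc-201 held 99.6% and 98.1% of C1qc. For Cx3cr1, Cx3cr1-201 held 99.04% and 99.38% in the first table but 37.1% and 53.0% in the second, where Cx3cr1-203 led in replicate 1 at 39.5%.

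In 4 members the leader changed between the mice, namely Itgam, Slc2a5, Trem2 and Inpp5d. Trem2-201 held 44.1% of Trem2 in replicate 1 and 83.4% in replicate 2, and Itgam-201 held 79.67% and 12.98% of Itgam, so single-mouse isoform shares of these genes were not stable. The tables named different leaders for P2ry12, where P2ry12-202 held 51.3% in the first table and P2ry12-201 held 72.2% in the second. They also differed for Tyrobp, Gpr34, Sirpa and Inpp5d. The leading transcript was not protein-coding in 3 members: a retained-intron transcript in Olfml3, at 82.7% and 83.6%, and in Inpp5d, and a processed transcript in Abi3. Total RNA includes unspliced and partly spliced RNA.

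**Figure D4:**
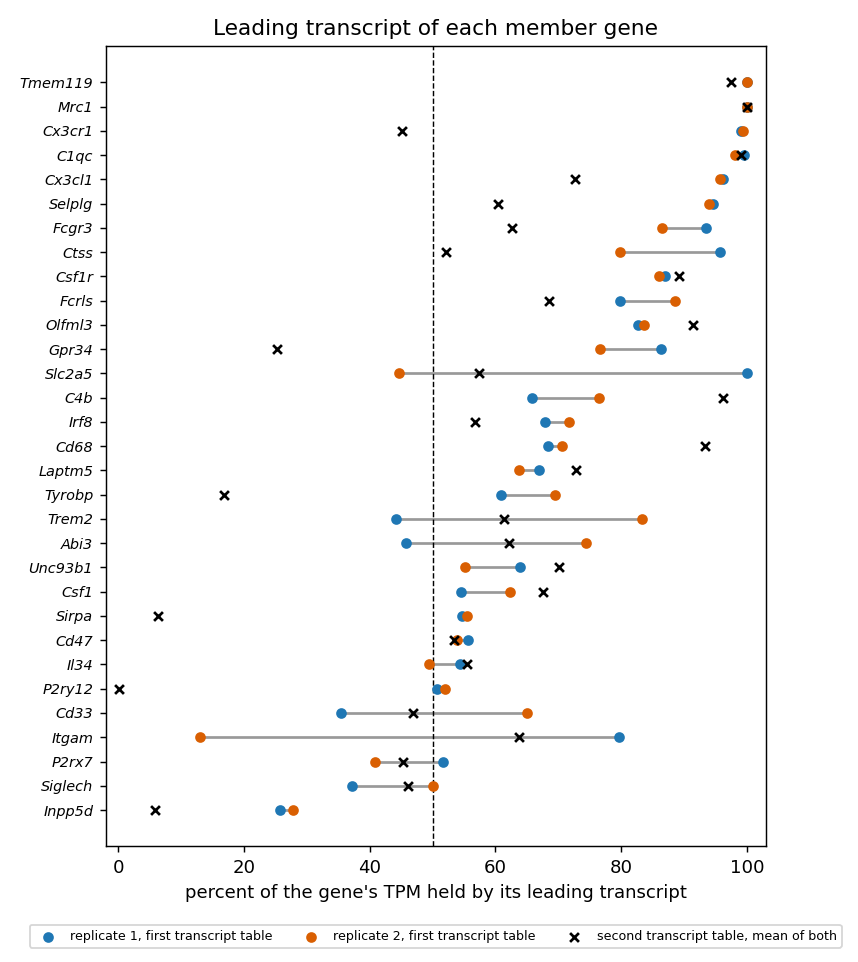
Percent of a gene's TPM held by its leading transcript in replicate 1 (blue) and replicate 2 (orange) of the first transcript table, and the mean of both mice for that transcript in the second table (cross), for 31 members with more than 1 transcript; the dashed line is at 50%. Itgam, Slc2a5 and Trem2 have long lines between the mice, and P2ry12 and Sirpa have crosses far to the left of their points.

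Set beside other cells of the tissue, the microglia signature was a minor component of the RNA. The median of the pan-neuronal markers was 75.5 ± 3.39 times that of the signature, that of oligodendrocyte markers 19.4 ± 2.02 times and that of astrocyte markers 8.76 ± 0.559 times. Markers of oligodendrocyte precursors and of endothelial cells were closer, at 1.85 ± 0.199 and 1.83 ± 0.298 times the signature. Each list was chosen for genes known to be strong in its cell type, so these ratios do not measure cell numbers.

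A list of 22 further microglia genes, all of them at 1 TPM or more in both mice, had a median of 8.71 ± 0.969 TPM. Its highest was the protease inhibitor gene Cst3, also made by other brain cells, at 844 and 852 TPM, and its lowest was Plcg2 at 1.03 and 1.06 TPM. Of 19 genes that rise in disease-associated microglia, 14 reached 1 TPM in both mice, led by Fth1 at 1063 ± 42.0 TPM and Apoe at 823 ± 33.2 TPM, which other brain cells make in large amounts. Clec7a, a pattern receptor that resting microglia largely lack, was the lowest, with 0 and 3 counts.

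Genes of inflammation and of blood leukocytes were near the floor. The median of 13 inflammatory cytokine genes was 0.150 ± 0.0424 TPM, with Il18 the only one to reach 1 TPM in both mice, at 12.7 and 10.8 TPM, and Il6 and Ccl4 at 0 counts in both. The median of 11 interferon response genes was 0.900 ± 0.141 TPM, with Ifi27 the highest at 25.67 and 24.02 TPM. Among 15 blood leukocyte markers the median was 0.0450 ± 0.0212 TPM, only Cd4 reached 1 TPM in both mice, at 1.68 and 2.19 TPM, and markers with 0 counts in both included Cd3d, Ly6g, Nkg7 and Gzma. Ptprc, the member that all leukocytes carry, stood at 0.940 ± 0.0141 TPM beside these lists.

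**Figure D5:**
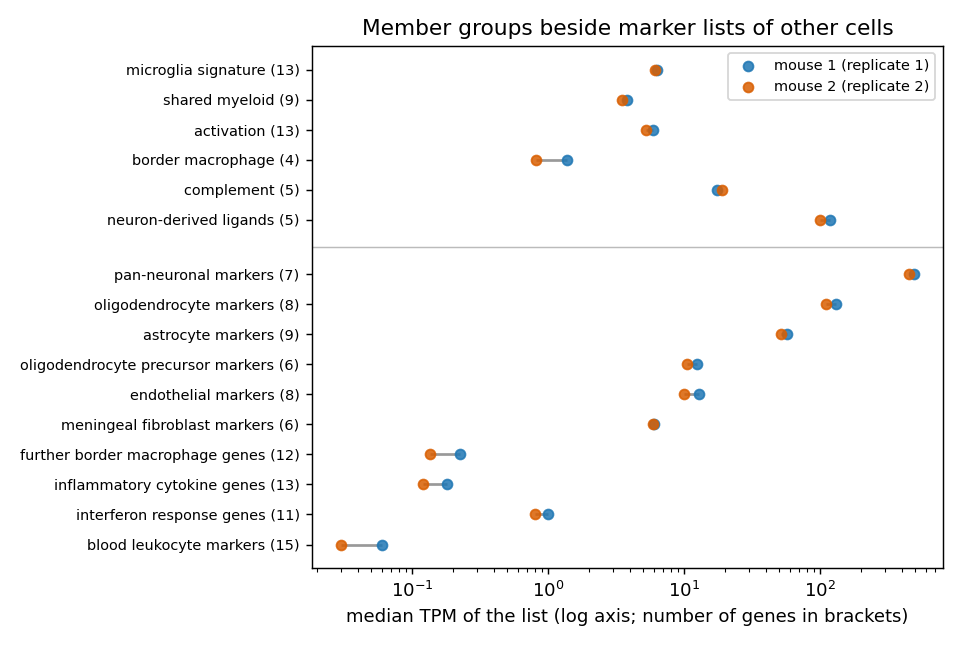
Median TPM (log axis) of the member groups, above the line, and of marker lists of other cells or states, below it, in replicate 1 (blue) and replicate 2 (orange), with the number of genes in brackets. The microglia signature lies between the endothelial and the meningeal fibroblast markers, and the cytokine and leukocyte lists lie below 0.2 TPM in both mice.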

How the data were processed

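Total RNA-seq tables of 2 female mice, 1 library each, were used, with groups and replicate numbers from the labels. Build mm10 is stated per the labels, and GENCODE M21 in the deposited notes. The sources used here name no quantifier, aligner or strand setting. Per the file headers, the gene table and the first of the transcript tables hold expected counts, in which the authors divided reads that fit several genes, and TPM scaled over all rows, spike-ins and short RNAs included. The first transcript table also gives, per the file headers, the percent of its gene's TPM that a transcript takes. The deposited bounds of the TPM intervals are used as a signal of unknown level. Estimated counts and TPM of the authors' second transcript table, named so per the file headers, were summed per gene. Quantification used the C57BL/6J reference although 1 parent of these mice is CAST/EiJ, and any reads lost from the CAST/EiJ allele were not estimated.

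Ratios used rounded expected counts, TMM library sizes (edgeR 4.0.16, R 4.3.3; mean count of 10 or more) and a prior count of 2. Intervals are 95% Clopper-Pearson intervals for the fraction of reads from replicate 2, and cover counting error only. Genes stood apart at 1.5-fold where their mean count was 100 or more, a rule of size with no test. Levels, ratios, 10 pairs, leading transcripts and 15 further gene lists were summarised in Python 3.11.15 (numpy 2.4.6, pandas 2.3.3, scipy 1.17.1, matplotlib 3.10.9), with DESeq2 1.42.0 for its size factors. In the further lists 1 symbol did not match and was left out. The members, groups, lists and pairs were chosen with earlier results of these data known. Both mice's values are given for the highest 3 and the lowest of each group and for the pairs. Of the further lists, the highest 2, the lowest and those past 1.5-fold were named, except some that are not reported here by name. Genes named for their lengths or transcripts, and the 4 promoter motifs, were chosen after the data were seen. The ratio step was tested on simulated data.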

Additional observations from a re-analysis of the deposited data

How the results depend on the processing

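The alternatives compared the first and second tables, scalings, filters and thresholds. In the second transcript table the median level rose to 7.86 TPM for all members, 7.58 for homeostatic, 11.1 for the signature, 5.84 for shared myeloid, 7.96 for activation, 28.4 for complement and 174 for the ligands. Rescaled over nuclear protein-coding genes, these medians were 11.9, 11.3, 14.1, 8.24, 12.7, 41.6 and 245 TPM, and 2.44 TPM for border macrophages. With members of a mean count of at least 100 only, they were 6.56 TPM for all, 6.0 for homeostatic, 8.06 for the signature, 4.28 for shared myeloid, 1.73 for border macrophages (Mrc1 alone) and 19.7 for complement. Ligands stayed the highest, complement the second and border macrophages the lowest in all of these, while activation (5.88 TPM with that filter) and homeostatic changed places. At 5 TPM, 24 members passed in place of 42.

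With spike-in scaling the median log2 ratio was -0.37 for all members, -0.35 for homeostatic, -0.33 for the signature, -0.36 for shared myeloid, -0.43 for activation, -0.24 for complement and -0.30 for the ligands. From TPM it was -0.097 for the signature and -0.12 for the ligands, and with second-table counts it was 0.19 for the ligands. The count of members at least 1.5-fold apart was 3 with spike-ins (Fcgr3, Mrc1 and Siglech; 20.97% of all genes passed), 4 by TPM (7.71% of all genes) and 2 of 47 at a mean count of at least 10 (C3 and Cd163; 12.3% of all genes). The second table gave ratios of 0.810 for C1qa over C1qb, 0.954 for C1qa over C1qc, 0.252 for C3 over C4b, 0.114 for Csf1 over Il34, 29.7 for Cx3cl1 over Cx3cr1 and 1.80 for Tyrobp over Fcer1g. The cause of these shifts was not tested, apart from the rescaling, which divides by a smaller total. DESeq2 size factors, a filter-free TMM and a prior count of 0.5 moved no median or count beyond its spread. Replicate 1 alone gave 44 members past 1 TPM and a border macrophage median of 1.39 TPM. Replicate 2 alone gave 42 members past that level and 0.81 TPM for the border macrophage group. No paired analysis was possible because there is only 1 group. Genes below a mean count of 100, among them Pf4, C3 and Itgax, are limited by depth.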
